A study of Mus musculus with 8 samples.

Results

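The genes described here encode respiratory complexes II to V and cytochrome c: 4 subunits of complex II, 9 of complex III, cytochrome c, 11 subunits of complex IV and 15 of complex V, 40 nuclear genes in all. They were chosen by name, and earlier results of these data were known when they were chosen. All 40 had a probe on the array, and all 40 were well above background on all 8 arrays, so the filter on dim probes removed none of them. They were 40 of 11072 genes tested.

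Complex II (succinate dehydrogenase) passes electrons from succinate to ubiquinone, and complex III (cytochrome bc1) passes them on to cytochrome c. Complex IV (cytochrome c oxidase) reduces oxygen with these electrons, and complex V (ATP synthase) uses the proton gradient built by the chain to make ATP. Hepatocytes are rich in mitochondria, and their respiration supplies ATP for gluconeogenesis and urea synthesis. A few subunits of complexes III, IV and V are encoded in mitochondrial DNA, and their transcripts were not matched to probes here.

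RNA was compared between isolated hepatocytes of hCNR1_WT mice (hCNR1+/+, 4 arrays) and hCNR1_cKO mice (hCNR1-/-, 4 arrays), with 1 mouse per array. Cnr1 encodes the cannabinoid 1 receptor, and hCNR1_cKO mice came from crossing CNR1 flox/flox mice with mice that carry albumin-Cre, which is active in hepatocytes. The controls were littermates, and whether they carried the Cre or the floxed allele is not given in the sources used here. All mice were male, 12 to 14 weeks of age, of the strain labelled CNRO, on the standard diet and untreated.

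For Cnr1 itself the signal of the single probe passed the background flag in 0 of 4 hCNR1_WT and 0 of 4 hCNR1_cKO mice, so these arrays do not check the genotype labels. The 75th percentile of the spot signal ran from 62.0 to 139 on hCNR1_WT and from 29.3 to 124 on hCNR1_cKO arrays, with the lowest value on hCNR1_cKO replicate 4. On that array 28.6% of the spots passed the background flag, and on the others up to 42.3%. Over 11072 genes, hCNR1_cKO replicate 4 had a mean correlation of 0.942 with the other arrays of its group, against 0.972 to 0.975 for replicates 1 to 3 of the same group. All arrays shared a slide and a scan day, but the genotypes lay in different rows of the slide, so row and genotype cannot be told apart. Counts over the members, and the differences of many of them, are therefore given with and without it.

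The promoters are shown first because the genes of these complexes are known for sharing motifs of a few transcription factors, among them nuclear respiratory factor 1 (NRF1), GABP of the ETS family, YY1 and CREB. RefSeq promoters of the build GRCm38.p6, from 250 bases before to 50 after the annotated start, were listed for 32 of the 40 genes. The NRF1 core GCATGCGC was found on either strand in 8 of 32 genes (25%), against 3.05% of all 27025 genes with a promoter. These 8 genes were Sdhb, Uqcrc1, Uqcr11, Cycs, Cox6a1, Atp5g2, Atp5k and Atp5l. The ETS core CCGGAAG was found in 12 of 32 genes (37.5%) against 9.93%, the YY1 core AAGATGGC in 3 of 32 (9.38%) against 3.19%, and the CRE TGACGTCA in 2 of 32 (6.25%) against 2.03%. A match is a description of these letters and does not show that a factor binds there. The 120 bases before the start are printed for 6 genes whose array values are given in full below, Sdhb, Uqcr11 and Cycs with matches and the 3 genes of the ATP synthase c subunit, 1 with and 2 without a match. The sequences run 5′ to 3′ on the strand of the gene, and capitals mark matches to the 4 motifs that lie wholly within the stretch.
Sdhb: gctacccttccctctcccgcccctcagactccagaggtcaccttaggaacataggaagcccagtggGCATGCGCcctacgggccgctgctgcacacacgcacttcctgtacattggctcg
Uqcr11: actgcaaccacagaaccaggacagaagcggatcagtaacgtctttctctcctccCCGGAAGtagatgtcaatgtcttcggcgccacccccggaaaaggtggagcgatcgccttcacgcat
Cycs: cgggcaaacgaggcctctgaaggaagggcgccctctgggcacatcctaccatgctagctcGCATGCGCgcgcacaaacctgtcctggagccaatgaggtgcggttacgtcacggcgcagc
Atp5g2: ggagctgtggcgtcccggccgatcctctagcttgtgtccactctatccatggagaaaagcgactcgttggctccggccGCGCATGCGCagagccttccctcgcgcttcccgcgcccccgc
Atp5g1: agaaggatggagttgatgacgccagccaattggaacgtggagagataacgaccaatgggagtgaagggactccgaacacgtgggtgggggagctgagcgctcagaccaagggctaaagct
Atp5g3: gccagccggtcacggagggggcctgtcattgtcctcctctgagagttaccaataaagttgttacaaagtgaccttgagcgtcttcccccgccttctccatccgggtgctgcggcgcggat
The Sdhb sequence is chr4:140961151-140961270 on the plus strand, with an NRF1 core that begins 54 bases before the start. Uqcr11 (chr10:80406822-80406941, minus strand) has an ETS core that begins 66 bases before the start, and its NRF1 core lies across the start, so that the printed stretch ends within it and it is not in capitals. Cycs (chr6:50566570-50566689, minus strand) has an NRF1 core that begins 60 bases before the start, and its CRE lies farther upstream. Atp5g2 (chr15:102671048-102671167, minus strand) has NRF1 cores on both strands that overlap and read as 1 run of capitals. Atp5g1 (chr11:96075632-96075751, minus strand) and Atp5g3 (chr2:73911327-73911446, minus strand) have no match in the stretch shown.

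Values are given as log2 signal relative to the 75th percentile of each array, and differences as hCNR1_cKO minus hCNR1_WT on the same log2 scale. The comparison asks how transcripts of the respiratory chain differ in hepatocytes that lack the receptor. One gene, Cox6c of complex IV, passed the test across all genes: it rose 2.19-fold (95% interval 1.6 to 3.0) in hCNR1_cKO, with an adjusted p of 0.0229 in limma. At this threshold 1 of 40 members was higher and 0 were lower, against 2.94% of all genes higher and 1.30% lower. At an unadjusted p below 0.05, 9 of 40 were higher and 0 lower, against 14.7% and 6.92% of all genes. In 11 of 40 members every hCNR1_cKO array lay above every hCNR1_WT array, and in 0 of 40 every one lay below, against 12.7% and 5.04% of all genes. The difference was above 0 in 33 of 40 members and below 0 in 7, with a median of 0.29, but in 24 of 40 with a median of 0.07 under quantile normalization and in 8 of 40 with a median of -0.27 when arrays were not scaled. The median of all tested genes was 0.08 in the scaled data, where 56.6% of genes were higher, and it moved to -0.47 without scaling. The members' median lay 0.20 above that of all genes with the 75th percentile and without scaling, and 0.07 above it under quantile normalization. All members were well above background on all 8 arrays. Among the 8371 genes that were so too, the median was 0.14 and 62.1% were higher, and the members' median lay 0.14 above it. With no filter on dim probes it lay 0.06 above the median of all genes, of which 66.2% were higher.

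**Figure D1:**
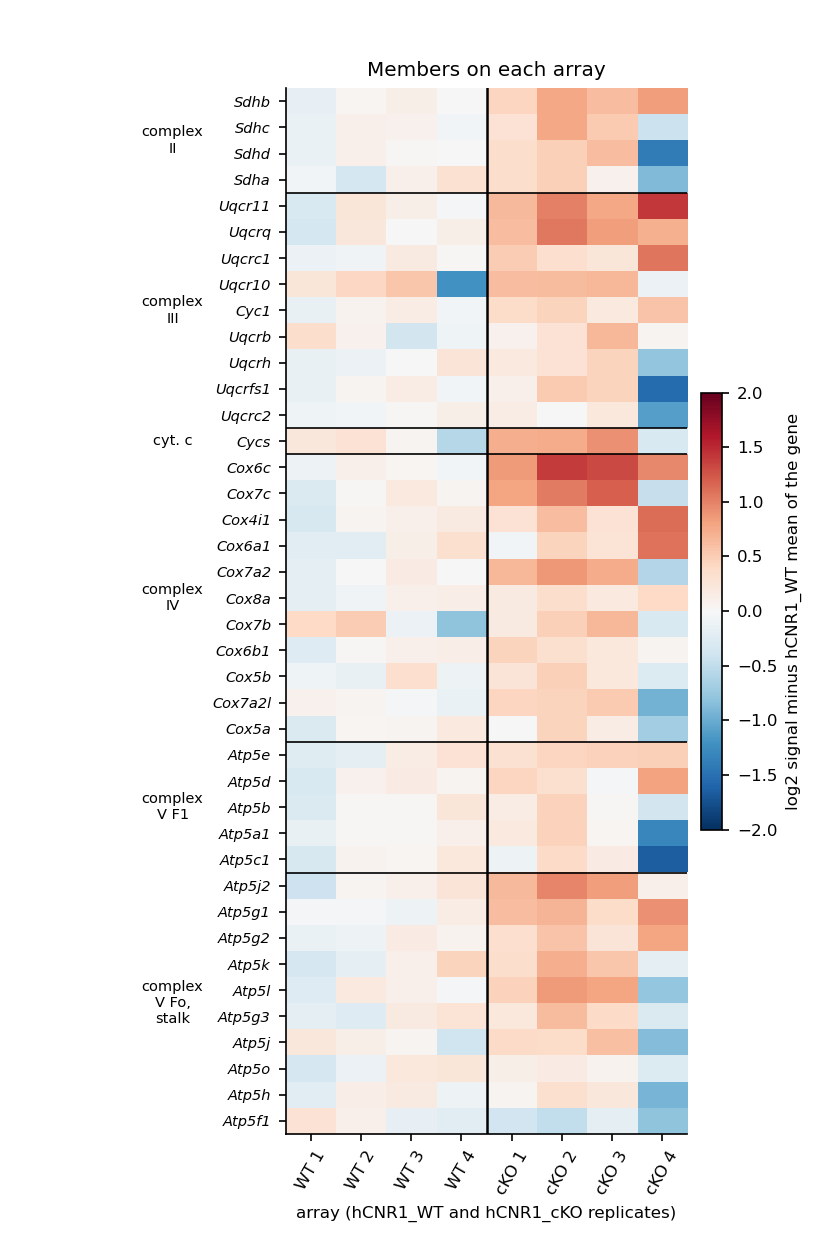
Heat map of the 40 genes (rows, grouped by complex) on the 8 arrays (columns). Colour gives the log2 signal, scaled to the 75th percentile of each array, minus the gene's hCNR1_WT mean, with red above and blue below. Replicates 1 to 3 of hCNR1_cKO are red for most genes, and replicate 4 holds the deepest blue (Atp5c1, Uqcrfs1, Sdhd) and, for Uqcr11, Cox4i1 and Cox6a1, red. Without scaling between arrays 32 of 40 differences were below 0.

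In complex II all 4 members had a difference above 0 with the 75th percentile scaling, beside 56.6% of all genes. The differences ran from 0.01 to 0.67, and none passed the adjusted test. Sdhb, the iron-sulphur subunit, read 7.99, 8.20, 8.27 and 8.15 on hCNR1_WT replicates 1 to 4 and 8.58, 8.93, 8.78 and 8.99 on hCNR1_cKO replicates 1 to 4. Every hCNR1_cKO array was above every hCNR1_WT array, and replicate 4 was the highest of all. The Sdhb difference was 0.67 (SE 0.19), with an exact permutation p of 0.0286, the smallest that 4 against 4 arrays can give, and an adjusted p of 0.0796 in limma. Its second probe gave 0.36 (SE 0.19). Sdhd, a membrane anchor with the haem group, read 6.08 to 6.30 on hCNR1_WT, 6.56, 6.68 and 6.82 on hCNR1_cKO replicates 1 to 3 and 4.80 on replicate 4. Replicates 1 to 3 of hCNR1_cKO thus lay above the control range and replicate 4 lay far below it. The difference of Sdhd was 0.01 (SE 0.41) over 8 arrays and 0.48 (adjusted p = 0.0623 in limma) without replicate 4. Sdha, the flavoprotein subunit, also had replicate 4 lowest, at 3.76 against an hCNR1_WT range of 4.29 to 4.94. Its difference was 0.01 (SE 0.32) over all arrays and 0.31 without replicate 4. For Sdhc, the other membrane anchor, the 2 probes disagreed about replicate 4. The brighter probe lay 0.96 below the mean of replicates 1 to 3 and the other 0.38 above it, so the differences over all arrays were 0.29 (SE 0.27) and 0.65 (SE 0.20).

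In complex III 7 of 9 members had a difference above 0 with this scaling (56.6% of all genes), with a median of 0.39. At an unadjusted p below 0.05, 3 of 9 were higher (14.7% of all genes). Uqcr11, a small subunit of the complex, read 7.91, 8.46, 8.33 and 8.18 on hCNR1_WT and 8.87, 9.23, 9.0 and 9.63 on hCNR1_cKO arrays. Uqcrq, the ubiquinone-binding small subunit, read 8.85, 9.44, 9.21 and 9.32 on hCNR1_WT and 9.82, 10.26, 10.05 and 9.91 on hCNR1_cKO arrays. The groups did not overlap for either gene. The differences were 0.96 (SE 0.23, adjusted p = 0.0516 in limma) for Uqcr11 and 0.80 (SE 0.21, adjusted p = 0.0647) for Uqcrq, whose second probe gave 0.69. Uqcrc1, a core protein of the complex, read 5.52, 5.55, 5.80 and 5.64 on hCNR1_WT and 6.14, 5.97, 5.87 and 6.71 on hCNR1_cKO arrays. The groups did not overlap, and the highest value was again replicate 4. The difference of Uqcrc1 was 0.54 (SE 0.23, adjusted p = 0.209 in limma), and -0.01 without scaling between arrays. Cyc1, which encodes cytochrome c1, also had groups that did not overlap, at 6.74 to 7.04 and 7.08 to 7.46, with a difference of 0.39 (SE 0.19, adjusted p = 0.259 in limma).

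The other core protein and the Rieske protein of complex III showed another order. Uqcrc2, the second core protein, read 5.59 to 5.79 on hCNR1_WT, 5.68 to 5.88 on hCNR1_cKO replicates 1 to 3 and 4.56 on replicate 4. Uqcrfs1, the Rieske iron-sulphur protein, read 6.12 to 6.41 on hCNR1_WT, 6.36 to 6.79 on hCNR1_cKO replicates 1 to 3 and 4.73 on replicate 4. Over all arrays the differences were -0.18 (SE 0.30) for Uqcrc2 and -0.12 (SE 0.42) for Uqcrfs1, and without replicate 4 they were 0.12 and 0.36. Uqcrh, the hinge protein, differed by 0.04 (SE 0.29) on its brighter probe and by 0.43 (SE 0.42) on the other, where hCNR1_WT replicate 4 was the lowest array at 5.63. Uqcrb, a small subunit next to the ubiquinone site, differed by 0.27 (SE 0.23). Uqcr10, another small subunit, differed by 0.45 (SE 0.39) on the brightest of its 3 probes and by 0.04 and 0.06 on the others. On that brightest probe hCNR1_WT replicate 4 read 6.11 against 7.56 to 7.87 on the other controls, a gap that the other probes of Uqcr10 did not show.

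Cycs encodes cytochrome c, the carrier between complexes III and IV that also starts caspase activation once it leaves the mitochondrion. It read 6.44, 6.50, 6.27 and 5.65 on hCNR1_WT and 6.94, 6.96, 7.12 and 5.91 on hCNR1_cKO replicates 1 to 4. The groups overlapped through hCNR1_cKO replicate 4, and both replicates numbered 4 lay below the other 6 arrays. The difference was 0.52 (SE 0.32, adjusted p = 0.377 in limma), 0.79 (adjusted p = 0.0549) without hCNR1_cKO replicate 4, and -0.04 without scaling between arrays. The dimmer probe of Cycs gave 0.07 (SE 0.33).

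In complex IV 10 of 11 members had a difference above 0 with this scaling (56.6% of all genes), with a median of 0.28. At an unadjusted p below 0.05, 2 of 11 were higher (14.7% of all genes). Cox6c, a small nuclear subunit that spans the membrane, read 7.43, 7.63, 7.57 and 7.48 on hCNR1_WT and 8.38, 8.93, 8.85 and 8.49 on hCNR1_cKO arrays. The lowest hCNR1_cKO array was above the highest control, and replicate 4 lay within the range of the other hCNR1_cKO arrays. The difference of Cox6c was 1.13 (SE 0.20), and 1.19 (adjusted p = 0.0118 in limma) without replicate 4. It stayed above 0 under each of 21 other settings, from 0.58 to 1.23, and the adjusted p was below 0.05 in 8 of them. On leaving out 1 array the call held without replicate 4 of either group, with an adjusted p of 0.0460 in limma without hCNR1_WT replicate 4, and was lost without any other array, with adjusted p values from 0.0512 to 0.0872. It was also lost under quantile normalization, at 0.84 with an adjusted p of 0.0585, and with a replicate block (adjusted p = 0.0819 in limma). The adjusted p in limma was 0.139 with no filter on dim probes, 0.210 with the authors' z-scores and 0.241 with normexp background correction. With median scaling it was 0.470, and without scaling 0.844. Cox4i1, the largest nuclear subunit and a site of control by ATP, read 8.97, 9.34, 9.40 and 9.47 on hCNR1_WT and 9.59, 9.91, 9.59 and 10.41 on hCNR1_cKO arrays. The groups did not overlap, with replicate 4 the highest. The difference of Cox4i1 was 0.58 (SE 0.24, adjusted p = 0.21 in limma).

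Cox7c and Cox7a2, small subunits of complex IV, were among the members that changed most on leaving out replicate 4. Cox7c read 5.95 to 6.43 on hCNR1_WT, 7.02, 7.28 and 7.44 on hCNR1_cKO replicates 1 to 3 and 5.78 on replicate 4. Cox7a2 read 6.36 to 6.71 on hCNR1_WT, 7.20 to 7.40 on hCNR1_cKO replicates 1 to 3 and 5.96 on replicate 4. For both genes the 3 arrays lay above all controls and replicate 4 below all of them. Over all arrays the differences were 0.64 (SE 0.35) for Cox7c and 0.42 (SE 0.32) for Cox7a2. Without replicate 4 they were 1.01 (adjusted p = 0.0169 in limma) and 0.76 (adjusted p = 0.0219). Of the 3 probes of Cox7c, 2 were well above background on all arrays and had replicate 4 as the lowest array, and a dimmer one did not.

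The remaining 7 subunits of complex IV had differences from -0.02 to 0.44, and all lay above 0 without replicate 4. Cox8a, with groups that did not overlap, read 9.19 to 9.51 and 9.55 to 9.78 (difference 0.28, SE 0.18). Its second probe gave 0.02 (SE 0.23) with groups that overlapped, and had replicate 4 as the lowest array where the first had it highest. Cox6a1, the liver form of subunit 6A, differed by 0.44 (SE 0.28), with replicate 4 at 11.91 as the highest of 8 arrays. Cox6b1, which faces the intermembrane space, differed by 0.25 (SE 0.19), and Cox5b, a matrix subunit that binds zinc, by 0.17 (SE 0.23). Cox7b differed by 0.26 (SE 0.34) and Cox5a by -0.02 (SE 0.27). Cox7a2l, which joins complexes III and IV in supercomplexes, differed by 0.11 (SE 0.33), and its 3 probes gave differences from -0.11 to 0.11.

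ATP synthase has a catalytic F1 head and a membrane Fo part with a peripheral stalk. In the F1 head 3 of 5 members had a difference above 0 (56.6% of all genes), with a median of 0.07. None had an unadjusted p below 0.05. The catalytic beta subunit Atp5b read 8.94 to 9.48 on hCNR1_WT and 8.87 to 9.70 on hCNR1_cKO arrays, a difference of 0.07 (SE 0.23). The alpha subunit Atp5a1 (-0.15, SE 0.36) and the gamma subunit Atp5c1 of the rotor shaft (-0.30, SE 0.41) had replicate 4 lowest, at 5.50 and 5.97 against 6.66 to 6.90 and 7.31 to 7.84 on hCNR1_WT. Without replicate 4 these differences were 0.23 and 0.15. The delta and epsilon subunits of the rotor had replicate 4 highest. Atp5d differed by 0.38 (SE 0.23), and Atp5e, with groups of 8.55 to 9.08 and 9.10 to 9.27 that did not overlap, by 0.42 (SE 0.20).

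In the Fo part and the stalk 8 of 10 members had a difference above 0 (56.6% of all genes) with this scaling, with a median of 0.28. At an unadjusted p below 0.05, 3 of 10 were higher (14.7% of all genes). The c ring turns with the proton flow, and its subunit is encoded by Atp5g1, Atp5g2 and Atp5g3. Atp5g1 read 8.09, 8.09, 8.01 and 8.26 on hCNR1_WT and 8.73, 8.79, 8.47 and 9.02 on hCNR1_cKO arrays. Atp5g2 read 8.92, 8.96, 9.23 and 9.14 on hCNR1_WT and 9.40, 9.63, 9.33 and 9.86 on hCNR1_cKO arrays. Both had groups that did not overlap and replicate 4 as the highest array. Atp5g3 read 8.67, 8.60, 9.03 and 9.13 on hCNR1_WT and 9.07, 9.50, 9.24 and 8.57 on hCNR1_cKO arrays, where the groups overlapped and replicate 4 was the lowest array. The differences were 0.64 (SE 0.20, adjusted p = 0.0962 in limma) for Atp5g1, 0.49 (SE 0.20, adjusted p = 0.197) for Atp5g2, and 0.23 (SE 0.25, adjusted p = 0.623) for Atp5g3. Without scaling they were 0.09, -0.06 and -0.32, and under quantile normalization the difference of Atp5g3 was -0.09. The difference between the 3 genes was not tested.

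Atp5j2, the f subunit, read 7.21, 7.69, 7.74 and 7.88 on hCNR1_WT and 8.28, 8.62, 8.47 and 7.73 on hCNR1_cKO arrays. Replicates 1 to 3 lay above the controls and replicate 4 among them. The difference was 0.64 (SE 0.26, adjusted p = 0.184 in limma), 0.61 on its second probe, and 0.83 (adjusted p = 0.0342) without replicate 4. Atp5l, the g subunit, was measured by 5 probes, which gave differences from 0.33 to 0.54. All of them had replicate 4 below the mean of replicates 1 to 3, with deviations from -1.58 to -1.33. Without that array the difference of the brightest probe was 0.70 (adjusted p = 0.0389 in limma).

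Atp5f1, the b subunit of the peripheral stalk (Atp5pb in RefSeq), was the member with the lowest difference. It read 4.23, 4.05, 3.78 and 3.72 on hCNR1_WT and 3.56, 3.46, 3.76 and 3.15 on hCNR1_cKO arrays. The groups overlapped by 1 array. The difference was -0.46 (SE 0.22, adjusted p = 0.252 in limma, exact permutation p = 0.0571), and -0.45 on its second probe. It was the 1 member of 40 that remained below 0 without replicate 4, at -0.35. The other stalk members were Atp5o, the oligomycin sensitivity protein (0.02, SE 0.22), Atp5h, subunit d (-0.08, SE 0.29), and Atp5j, coupling factor 6 (0.13, SE 0.33). Atp5k, the e subunit, differed by 0.36 (SE 0.27).

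**Figure D2:**
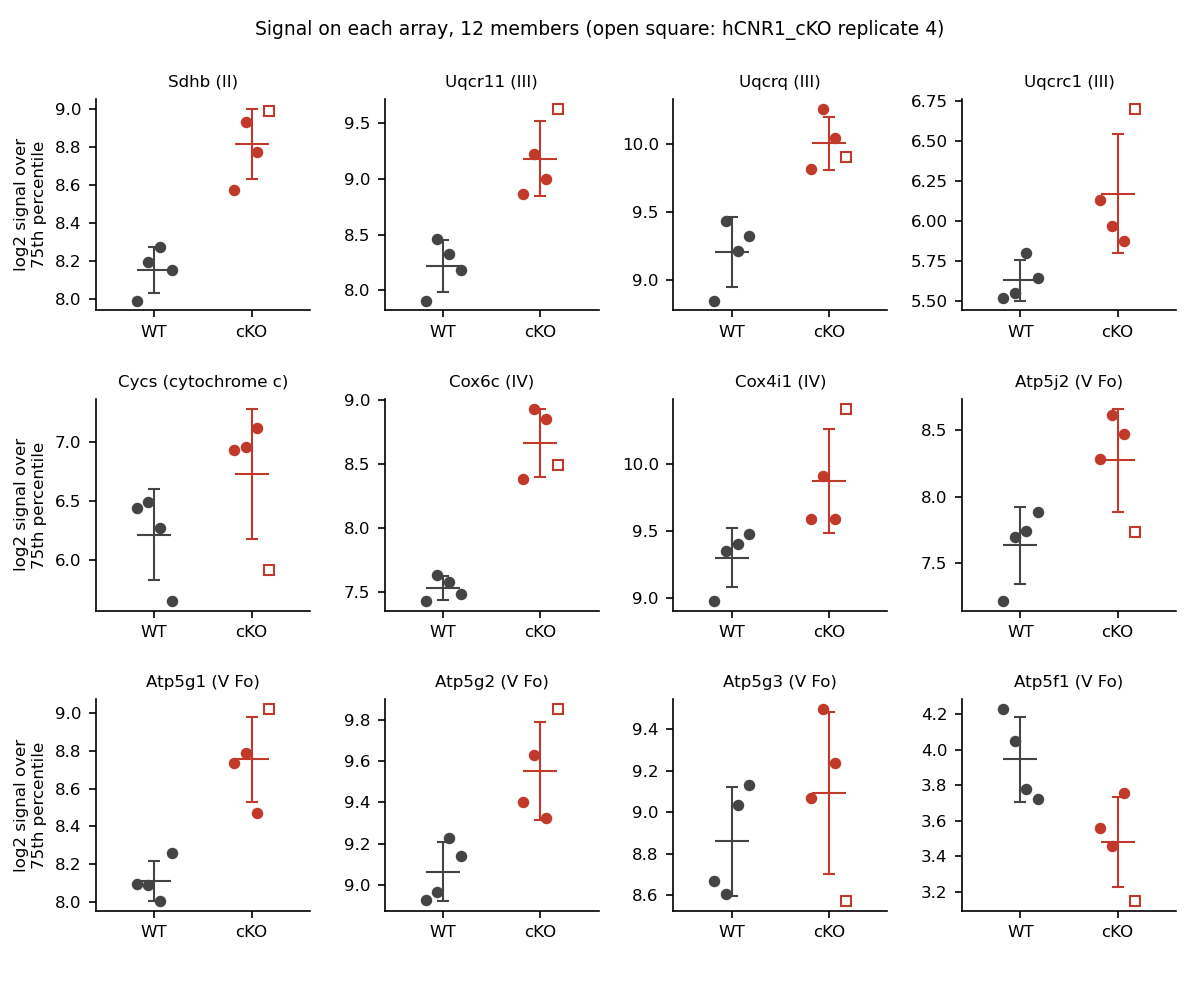
Log2 signal relative to the 75th percentile of each array for the 12 genes given in full, with hCNR1_WT (grey) and hCNR1_cKO (red) arrays as points and the mean ± SD as bars. The open square is hCNR1_cKO replicate 4. It is the highest array for Sdhb, Uqcr11, Uqcrc1, Cox4i1, Atp5g1 and Atp5g2 and the lowest for Atp5g3 and Atp5f1. The vertical axes differ between panels and do not start at 0.

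Replicate 4 of hCNR1_cKO split the members. It was the lowest of the 8 arrays for 19 of 40 (38.9% of all genes) and the highest for 11 of 40 (21.3%). Relative to the mean of hCNR1_cKO replicates 1 to 3 it was lower in 29 members and higher in 11, with a median of -0.71 and a range from -1.90 (Uqcrfs1) to 0.87 (Cox6a1). The SD of this deviation over members was 0.79, and over all genes it was 1.01, with a median of -0.33. It was more than 1 log2 unit low for 14 members and more than 1 high for 0, against 26.7% and 7.98% of all genes. For the other 7 arrays the same SD over members was 0.19 to 0.41. The 14 low members came from every complex: Sdha, Sdhd, Uqcrc2, Uqcrfs1, Uqcrh, Cycs, Cox7a2, Cox7a2l, Cox7c, Atp5a1, Atp5c1, Atp5h, Atp5j and Atp5l. The part of signal level, RNA quality or position on the slide in this was not tested. Among the 17 members with several tested probes, the probes had the same sign of the difference between genotypes in 16, and the same sign of the deviation of replicate 4 in 14. A control array also deviated: hCNR1_WT replicate 1 was below the mean of the other controls in 33 of 40 members. Its median deviation was -0.21 over members and 0.002 over all genes. Without hCNR1_WT replicate 1, 28 of 40 differences were above 0, beside 56.4% of all genes.

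**Figure D3:**
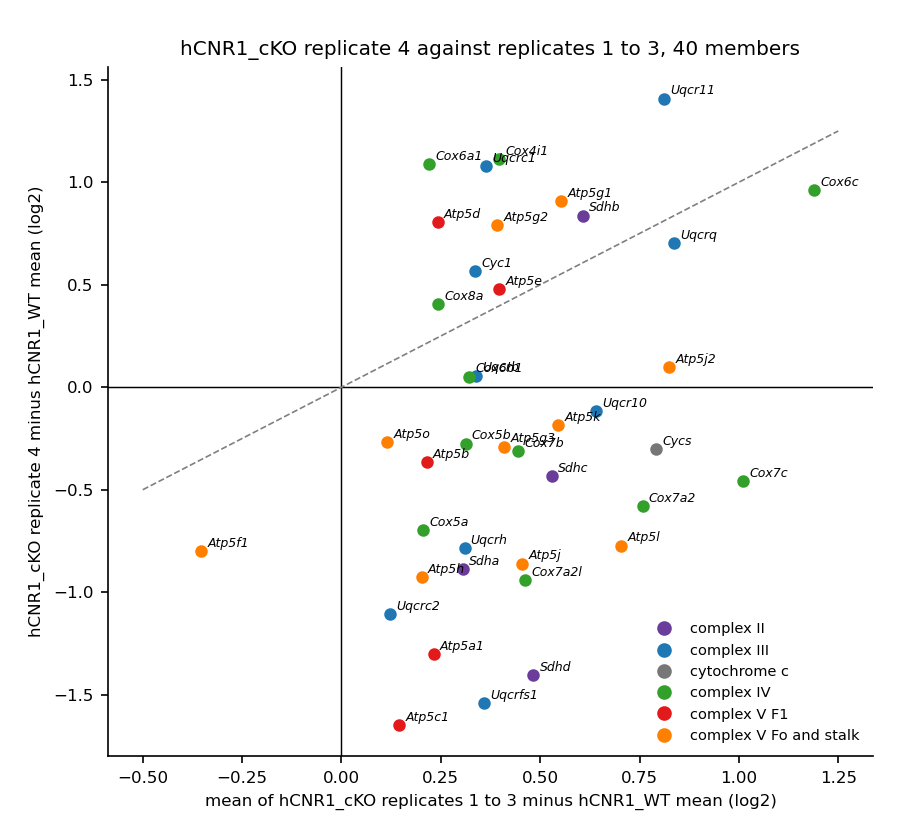
Each of the 40 genes by the mean of hCNR1_cKO replicates 1 to 3 (horizontal) and by replicate 4 (vertical), both minus the hCNR1_WT mean in log2 units with 75th percentile scaling. On the dashed line both would be the same. Along the horizontal axis 39 of 40 genes lie above 0, and along the vertical axis 16 lie above and 24 below.

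Without replicate 4 of hCNR1_cKO, 39 of 40 differences were above 0 and the median was 0.39, where the median of all tested genes was 0.17 and 64.6% were higher. The adjusted test then gave 9 of 40 members higher and 0 lower, against 10.1% and 2.92% of all genes. The 9 were Sdhb, Uqcr11, Uqcrq, Cox6c, Cox7a2, Cox7c, Atp5g1, Atp5j2 and Atp5l. At an unadjusted p below 0.05, 17 of 40 were higher and 0 lower, against 24.0% and 7.69%. In 22 of 40 members hCNR1_cKO replicates 1 to 3 all lay above all hCNR1_WT arrays, and in 0 of 40 all lay below, against 24.3% and 6.93% of all genes. These counts belong to a subset of the arrays, since no label sets replicate 4 apart. The study's legend for the array data gives fewer mice per genotype than there are labelled arrays and does not say which arrays it counted. Leaving out any one of the other 7 arrays gave 0 or 1 member higher at an adjusted p below 0.05, with medians from 0.24 to 0.32. In those fits 13 to 143 of all 11072 genes were higher at this threshold. Differences above 0 were then found in 28 to 33 of 40 members, beside 52.7% to 58.4% of all genes. Leaving out replicate 4 of hCNR1_cKO raised the difference in 29 members and lowered it in 11. In those 11 it was then 0.81 for Uqcr11, 0.61 for Sdhb, 0.55 for Atp5g1, 0.40 for Cox4i1 and Atp5e, and 0.39 for Atp5g2. For the rest of them it was 0.36 for Uqcrc1, 0.34 for Cyc1, 0.24 for Atp5d and Cox8a, and 0.22 for Cox6a1.

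**Figure D4:**
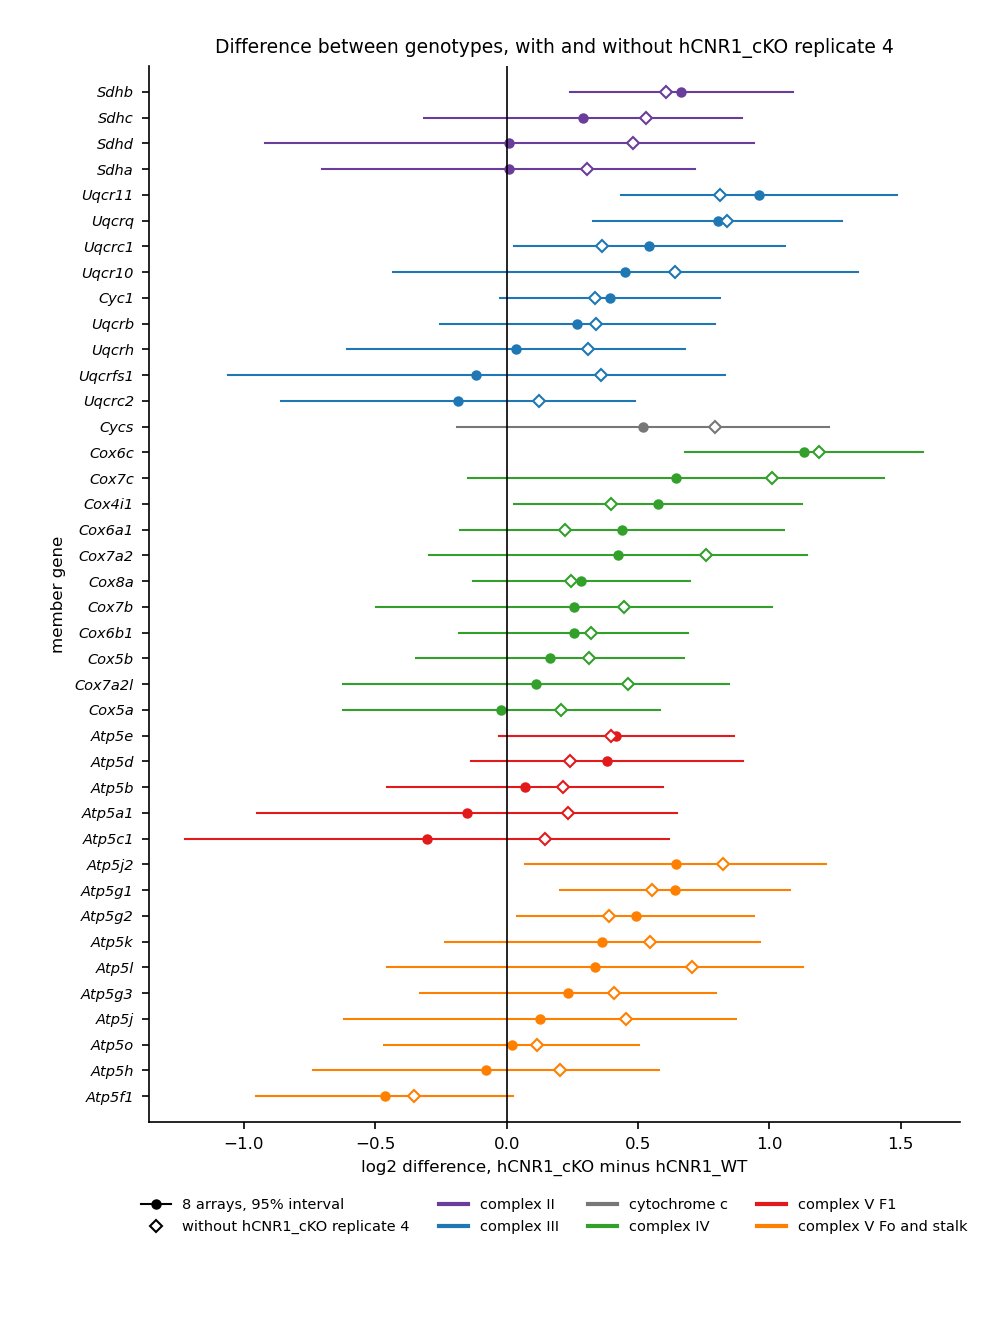
Log2 difference, hCNR1_cKO minus hCNR1_WT, for each gene, coloured by complex. Filled circles with bars give the value over 8 arrays with its 95% interval in limma, and open diamonds the value without hCNR1_cKO replicate 4. The circles range from -0.46 (Atp5f1) to 1.13 (Cox6c), and all diamonds but that of Atp5f1 lie above 0. The scaling is to the 75th percentile.

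The genes that build these complexes were examined beside them. Of 37 assembly factors 32 were tested, with 19 differences above 0 (59.4%, beside 56.6% of all genes) and a median of 0.11. At an adjusted p below 0.05, 1 of 32 was higher and 0 were lower, beside 2.94% and 1.30% of all genes. The gene that rose was Uqcc2, an early assembly factor of complex III, which read 5.65 to 6.19 on hCNR1_WT and 6.81 to 7.06 on hCNR1_cKO arrays, a difference of 0.95 (SE 0.20, adjusted p = 0.0362 in limma). The call on Uqcc2 held without hCNR1_cKO replicate 4 (adjusted p = 0.0211 in limma) and was lost without any of the other 7 arrays, with adjusted p values from 0.0619 to 0.109. For complex IV, Coa6, a copper delivery factor, differed by 1.19 (SE 0.30, adjusted p = 0.0547) and Coa3, which acts with newly made Cox1, by 0.68 (SE 0.17, adjusted p = 0.0605). For complex II, 3 of 4 factors had a difference below 0, with Sdhaf4 at -1.23 (SE 0.48, adjusted p = 0.172) and Sdhaf3 at -0.77 (SE 0.37, adjusted p = 0.264). For complex V, Atpif1, the inhibitor of ATP hydrolysis, differed by -0.38 (SE 0.21) and Atpaf2, a chaperone of the alpha subunit, by 0.06 (SE 0.19).

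Of 11 further subunits and tissue isoforms 8 were tested. Ndufa4l2, a relative of the complex IV subunit Ndufa4 that is known as a hypoxia target, read 3.69, 3.52, 4.47 and 4.81 on hCNR1_WT and 2.45, 2.34, 1.06 and 1.73 on hCNR1_cKO arrays. It fell by 2.23 (SE 0.39, adjusted p = 0.0222 in limma), and by 2.17 without replicate 4. The call was lost without replicate 3 of hCNR1_WT (adjusted p = 0.0807 in limma) or of hCNR1_cKO (adjusted p = 0.0656). Of 13 regulators of mitochondrial genes 12 were tested, with 6 differences above 0 and 6 below and none past the adjusted threshold. Tfam, which packages and transcribes mitochondrial DNA, read 1.98, 1.54, 1.40 and 1.21 on hCNR1_WT and 0.58, 0.35, 0.85 and -1.23 on hCNR1_cKO arrays. The groups of Tfam did not overlap, and the difference was -1.40 (SE 0.43, adjusted p = 0.0981 in limma), or -0.94 (adjusted p = 0.0331) without replicate 4. Esrra, a nuclear receptor that acts with PGC-1 coactivators, differed by 0.45 (SE 0.20, adjusted p = 0.229). Of 15 carriers and other mitochondrial proteins, Timm44, part of the protein import motor, rose by 1.16 (SE 0.19, adjusted p = 0.0188 in limma). Its adjusted p was 0.0555 and 0.0807 without hCNR1_WT replicate 2 or 3 and 0.0576 and 0.0621 without hCNR1_cKO replicate 1 or 3. Over these 67 tested genes 2 were higher and 1 lower at an adjusted p below 0.05, beside 2.94% and 1.30% of all genes. Without replicate 4 of hCNR1_cKO, 12 were higher and 2 lower, beside 10.1% and 2.92% of all genes. On leaving out any other array there were 0 or 1 in each direction, beside 13 to 143 of all 11072 genes higher and 25 to 85 lower.

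**Figure D5:**
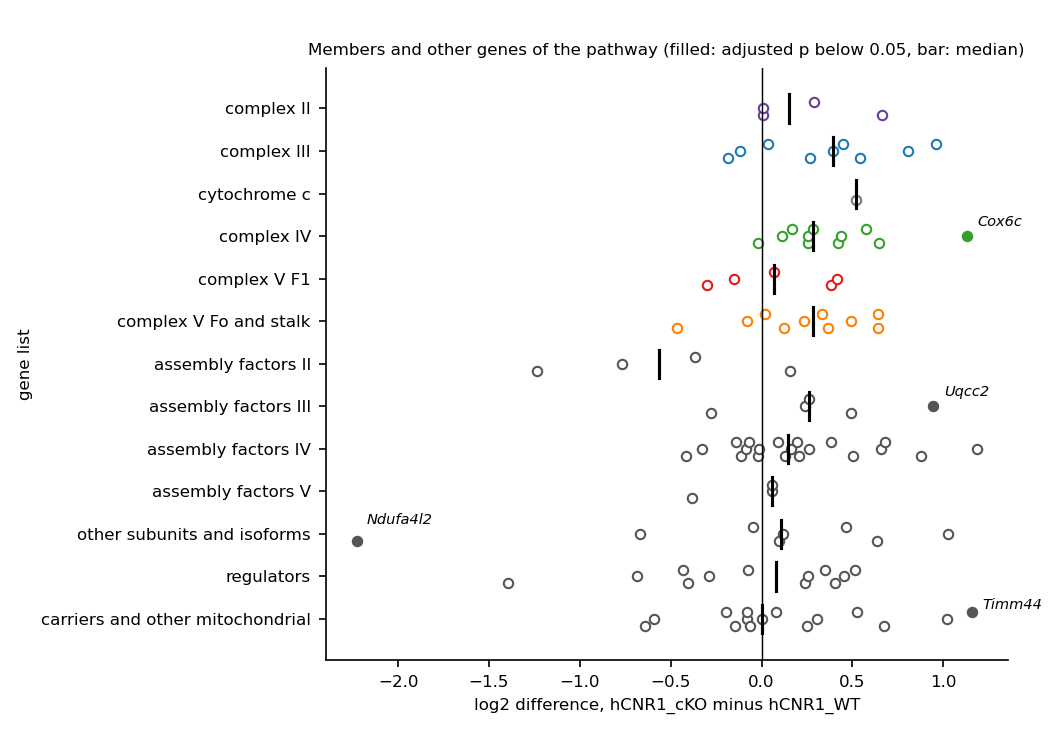
Log2 difference, hCNR1_cKO minus hCNR1_WT, with 75th percentile scaling (horizontal) for the genes of each list (vertical). Filled points have an adjusted p below 0.05 in limma, and the black bar is the median. Cox6c, Uqcc2 and Timm44 are filled on the right and Ndufa4l2 on the left, and the bar of the complex II assembly factors lies at -0.57.

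Markers of other cells were set beside these results, as a preparation of hepatocytes can hold other liver cells. All 10 hepatocyte markers were tested, with a median difference of -0.08 and none past the adjusted threshold. Of 10 Kupffer cell markers 8 were tested, and all 8 had a difference below 0, with a median of -0.98, and Marco passed the adjusted test (-2.41, SE 0.49, adjusted p = 0.0336 in limma). That call was lost on leaving out replicate 2 or 3 of hCNR1_WT or replicate 1, 2 or 3 of hCNR1_cKO, with adjusted p values from 0.0656 to 0.0968. The summed linear signal of the 8 markers was 82.1 to 163 times the 75th percentile on hCNR1_WT and 50.1 to 68.0 times on hCNR1_cKO arrays. Most of this sum was Cd68, at log2 values of 5.72 to 6.56 on hCNR1_WT and 5.15 to 5.34 on hCNR1_cKO arrays. Clec4f and Vsig4 were dim, at up to 1.43 and -0.37 on hCNR1_WT, and Timd4 passed the background flag on 0 of 8 arrays. In such bulk RNA fewer cells of a type and less RNA per cell cannot be told apart. Sinusoidal endothelial markers (6 of 7 tested, 4 below 0) had a median of -0.29, or -0.11 without hCNR1_cKO replicate 4. Their summed linear signal went the other way, at 41.5 to 89.3 times the 75th percentile on hCNR1_WT and 52.7 to 294 times on hCNR1_cKO arrays. Kdr read 8.18 on hCNR1_cKO replicate 4. Of 6 lymphocyte markers 2 were tested, with a median of 0.68. Cd3e, a part of the T cell receptor complex, read 1.84 to 2.29 on hCNR1_WT and 2.30 to 3.86 on hCNR1_cKO arrays, without overlap, with replicate 4 the highest (0.90, SE 0.33, adjusted p = 0.153 in limma). Nkg7, a granule protein of cytotoxic cells, differed by 0.45 (SE 0.32), and Cd3g, Cd79a and Ptprc passed the background flag on 0 of 8 arrays. Of the other lists, 1 of 7 stellate cell, 0 of 4 neutrophil, 2 of 5 cholangiocyte, 1 of 6 erythroid and 2 of 5 brown fat and muscle markers were tested, and Ucp1 was not. The part of these cells in the values of the respiratory genes was not tested.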

How the data were processed

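Hepatocyte RNA of 8 mice was labelled with Cy3 and hybridised to 1-colour Agilent arrays. The authors deposited the processed intensity of each spot from Feature Extraction version 12.0.3.1, which corrects the background within an array and does not scale between arrays, and a score per spot, a z-score of the array's log2 intensities to within 0.005. The array test is not given in the sources used here. From 59305 non-control spots per array, the log2 intensity minus the array's 75th percentile was computed, spots flagged as outliers were dropped and spots of a probe averaged. Accessions were matched to RefSeq genes (28331 of 55681 probes, 21368 genes). A probe with 50% or more of its spots flagged by the software as well above background was detected, and probes detected on 4 or more of the 8 arrays were tested. Each gene entered with its brightest such probe. Groups were compared with limma (version 3.58.1, R version 4.3.3; lmFit, eBayes), two-sided, with Benjamini-Hochberg adjustment over 11072 genes and a threshold of 0.05, and single genes with an exact permutation test over 70 assignments of arrays. The number of arrays limits the precision. The fit was run on simulated data with independent normal noise for each gene and array. That simulation held no array that deviates across genes, so it does not cover an array such as hCNR1_cKO replicate 4.

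Values on every array are given for the 10 members with the smallest p, for the leading member of each complex and of cytochrome c, and for the 3 c subunit genes, and in part for the others. Of each further list, genes past the adjusted threshold are named, or else those with the smallest p, and some further genes. The members and lists were chosen with earlier results of these data known. Arrays with the same replicate number did not deviate together (correlations of 0.21, -0.16, -0.05 and 0.02), so the numbers were not taken to pair the mice. Alternatives were other scalings, normexp with an offset of 50 on the median spot signal, the deposited scores, other filters and probe rules, an intensity trend, array weights, a replicate block and each array left out. With 1 slide and 1 scan day, neither could be fitted as a block. Leaving out both replicates numbered 4 was added after seeing the data.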

Additional observations from a re-analysis of the deposited data

Results flagged for a closer look

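Within each genotype, the gap between the highest or lowest array and its nearest neighbour was divided by the range of the 4 arrays for each of the 40 members, and 8 of 80 groups passed the critical value of Dixon's test. Chance alone flags about 1 in 20 groups, and the members share their arrays. In 7 of the 8, replicate 4 of hCNR1_cKO was the lowest array. Its ratio of gap to range was 0.949 for Uqcr10, 0.939 for Cox7a2l, 0.870 for Sdhd, 0.862 for Cox7a2, 0.849 for Uqcrc2, 0.848 for Cycs and 0.843 for Atp5j. The remaining one was Cox5b, where replicate 3 of hCNR1_WT lay above the other 3 controls with a ratio of 0.857. Members for which replicate 4 of hCNR1_cKO was the highest array, such as Uqcr11 and Cox4i1, did not pass the critical value. The share of all genes past the critical value is not given here. Over all genes that array was the lowest of 8 for 38.9% and more than 1 log2 unit low for 26.7%. Whether the flags are particular to the members was not tested.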

How the results depend on the processing

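The count of members higher at an adjusted p below 0.05 was 1 and changed with the processing, while the count of members lower was 0 under every setting run. The higher count was 0 under quantile normalization, median scaling, no scaling, the authors' z-scores, normexp and no filter on dim probes. It was also 0 in the paired fit with a replicate block, in which 0 of all 11072 genes passed. Over all genes, 325 were higher in the main fit, 134 under quantile normalization, 25 with median scaling and 1 with no scaling. With z-scores, normexp and no filter, 30, 28 and 8 of all genes were higher. The count of members was 2 with the filter set to all 8 arrays and with each probe on its own, and 4 with an intensity trend. It was 12 with array weights and 11 without both replicates numbered 4. Over all genes, 341 of 8371 were higher with that filter, 889 of 19985 probes on their own, and 436 genes with the trend. With array weights 2176 of all genes were higher, and 1701 without both replicates numbered 4. Leaving out 1 array gave 0 to 9 members, with 9 without hCNR1_cKO replicate 4, where 1121 of all genes were higher. Without any other single array, 13 to 143 of all genes were higher. At an unadjusted p, the count higher was 9 (14.7% of all genes). It was 3 under quantile normalization, 2 with median scaling, 0 with no scaling, 1 with z-scores and 6 with normexp. It was 5 without the filter, 19 with array weights, 20 without both replicates numbered 4 and 7 in the replicate block. On leaving out 1 array it was 5 to 17, with 17 without hCNR1_cKO replicate 4 (24.0% of all genes). The share of all genes at an unadjusted p is not given here for the other settings. These counts therefore do not separate the members from all genes. The count lower at an unadjusted p was 1 under quantile normalization, z-scores, the stricter filter, the intensity trend and without both replicates numbered 4, and 0 to 1 on leaving out 1 array. The members' median moved to -0.27 without scaling. Differences that turned negative were those of Atp5g2 (-0.0643), Uqcrc1 (-0.0134), Cycs (-0.0365) and Atp5g3 (-0.32) without scaling, and of Atp5g3 (-0.0942) under quantile normalization. Leaving out the scaling shifted the difference of every gene by the same -0.56, which alone turned those 4 and the median, and the cause of the other changes was not tested. Of 252 comparisons of the 12 named differences with an alternative, 212 kept their direction and their side of the threshold, 22 passed it newly, 13 lost it and 5 turned.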
